A study of Mus musculus with 62 samples.

Results

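The data described here are the expression values of 9 genes that mark fibro-adipogenic progenitors (FAPs) and muscle fibroblasts, measured by RNA-seq in the diaphragm of mice bearing melanoma xenografts. The 9 genes, Pdgfra, Ly6a, Cd34, Dpt, Pi16, Dpp4, Thy1, Gsn and Smoc2, were chosen by name among the 47643 genes of the deposited table, and all 9 were among the 13578 genes tested. The mice were females in 3 groups: mice with a cachectic melanoma, mice with a non-cachectic melanoma, and controls with a mock injection. Their age is given as 2 months in each condition, which the study's methods state for the mice as purchased. Age at sampling is not given apart from the week, so comparisons over weeks can also be comparisons of age. Each group was sampled at 2, 4, 6 and 8 weeks post injection, with 5 mice per condition and 7 cachectic mice at 8 weeks, 62 libraries in all, each from 1 mouse. The series' design names the mice as NCI Ath/nude, a strain without a thymus, and the sample labels name C57BL6/J. By the study's methods, each melanoma is a single patient-derived xenograft placed in the flank, so that a difference between cachectic and non-cachectic mice is a difference between 1 tumor of each kind. By the same methods the muscle was cut free of its tendons. RNA came from 1 homogenized part of it, and the other part was kept for sections.

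FAPs are mesenchymal cells that lie between the myofibers, outside the basal lamina. They make most of the interstitial matrix of skeletal muscle, send signals to satellite cells during repair, and can give rise to fibroblasts and adipocytes. PDGFRα, the receptor for PDGF ligands encoded by Pdgfra, and Sca-1, the cell surface protein encoded by Ly6a, are the usual pair for sorting them. Cd34 encodes a sialomucin that endothelial cells also carry, and Thy1 encodes CD90, a GPI-anchored protein that T cells, neurons and some fibroblasts carry. Pi16, a peptidase inhibitor, and Dpp4, a dipeptidyl peptidase, mark a subset of adventitial, stem-like fibroblasts. Dpt (dermatopontin) and Smoc2 are secreted matrix proteins, and Gsn (gelsolin) severs actin filaments in many cell types. In whole muscle, fewer cells of a type and less RNA per cell cannot be told apart.

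In the GENCODE annotation of GRCm38, the build the study names, each of the 9 genes is protein coding. Pdgfra lies on the plus strand at chr5:75152292-75198215, Ly6a on the minus strand at chr15:74994877-74998031 and Thy1 on the plus strand at chr9:44043384-44048579. Cd34 (chr1:194938819-194961279) and Dpt (chr1:164796644-164824266) share a chromosome, as do Dpp4 (chr2:62330073-62412231) and Gsn (chr2:35256380-35307892), and Pi16 (chr17:29317680-29330593) and Smoc2 (chr17:14279506-14404790). Ly6a and Thy1 overlap no other annotated gene. Dpt overlaps the antisense gene Gm32569, whose mean over the 62 mice was 0.755 TPM. Ly6a is one of a cluster of similar genes, and how reads matching several genes were counted is not given in the sources used here, which leaves its absolute level uncertain.

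RefSeq promoter sequences (GRCm38.p6) were matched for 6 of the 9 genes. The 250 bases before the start site are shown for Pdgfra, Cd34 and Dpt, as examples of a receptor, a surface protein and a matrix protein among the 6. They were searched on both strands for the TATA box TATAAA, for the box bound by NF-Y, which reads CCAAT, for the GC box, which reads GGGCGG, for the STAT site TTCNNNGAA and for the AP-1 site, which reads TGANTCA, and matches are in capitals.
Pdgfra, chr5:75152001-75152250, plus strand: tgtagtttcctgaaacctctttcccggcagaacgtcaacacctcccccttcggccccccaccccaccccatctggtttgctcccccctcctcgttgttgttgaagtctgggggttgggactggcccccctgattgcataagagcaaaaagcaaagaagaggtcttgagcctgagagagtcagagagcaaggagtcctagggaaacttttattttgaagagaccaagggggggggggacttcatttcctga
Cd34, chr1:194938571-194938820, plus strand: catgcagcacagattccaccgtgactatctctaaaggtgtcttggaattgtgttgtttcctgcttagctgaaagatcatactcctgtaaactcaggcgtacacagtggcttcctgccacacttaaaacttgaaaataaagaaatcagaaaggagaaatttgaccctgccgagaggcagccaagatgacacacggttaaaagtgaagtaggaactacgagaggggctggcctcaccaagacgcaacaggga
Dpt, chr1:164796413-164796662, plus strand: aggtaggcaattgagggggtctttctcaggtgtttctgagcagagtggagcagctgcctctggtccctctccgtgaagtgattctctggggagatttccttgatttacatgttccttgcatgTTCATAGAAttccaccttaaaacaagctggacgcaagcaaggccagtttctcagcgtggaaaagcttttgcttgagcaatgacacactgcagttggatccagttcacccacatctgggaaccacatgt
The Dpt window held 1 TTCNNNGAA match, from 128 to 120 bases before the start, which no other motif overlapped. Among the 32851 promoter windows of the same length, 7.02% held the STAT site, 12.4% the TATA box, 33.8% the NF-Y box, 32.7% the GC box and 6.75% the AP-1 site. None of these letters was found in the Pdgfra and Cd34 windows.

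Gsn was the most abundant of the 9 markers and Dpp4 the least. Levels are in TPM, a library's transcripts scaled to a fixed total, a unit that corrects for transcript length, so that genes can be set side by side. Over the 20 control mice the median was 612 TPM for Gsn, 127 for Dpt, 70.1 for Smoc2, 69.5 for Ly6a, 53.8 for Cd34, 50.6 for Pi16, 20.7 for Thy1, 10.7 for Pdgfra and 6.61 for Dpp4. Gsn was above Dpt, Dpt above Smoc2, and Pi16 above Thy1 in each of the 20 control mice, and Ly6a was above Cd34 and Thy1 above Pdgfra in 19 of them. Pdgfra was above Dpp4 in 15 of 20 mice. Smoc2 was above Ly6a in 9 of 20 mice and Cd34 above Pi16 in 8 of 20, so that neither of these pairs differed beyond its spread. Among the controls, Smoc2 varied least (coefficient of variation 11.6%) and Dpp4 most (43.9%).

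Some libraries stood apart. Libraries of cachectic mice 3 and 4 at 2 weeks, non-cachectic mouse 5 at 2 weeks and cachectic mouse 3 at 8 weeks listed 15069 to 16389 genes above 0, against 17909 to 19057 in the other 58, and 54.4% to 61.5% of their TPM came from mitochondrially encoded genes, against 32.5% to 50.1%. Control mice 2, 4 and 5 at 2 weeks had a mean log2(TPM + 1) of 8.45 to 10.2 over 10 liver genes, against at most 7.97 elsewhere. For the markers in cachectic versus control mice at 2 and 8 weeks, values are also given without these libraries.

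**Figure D1:**
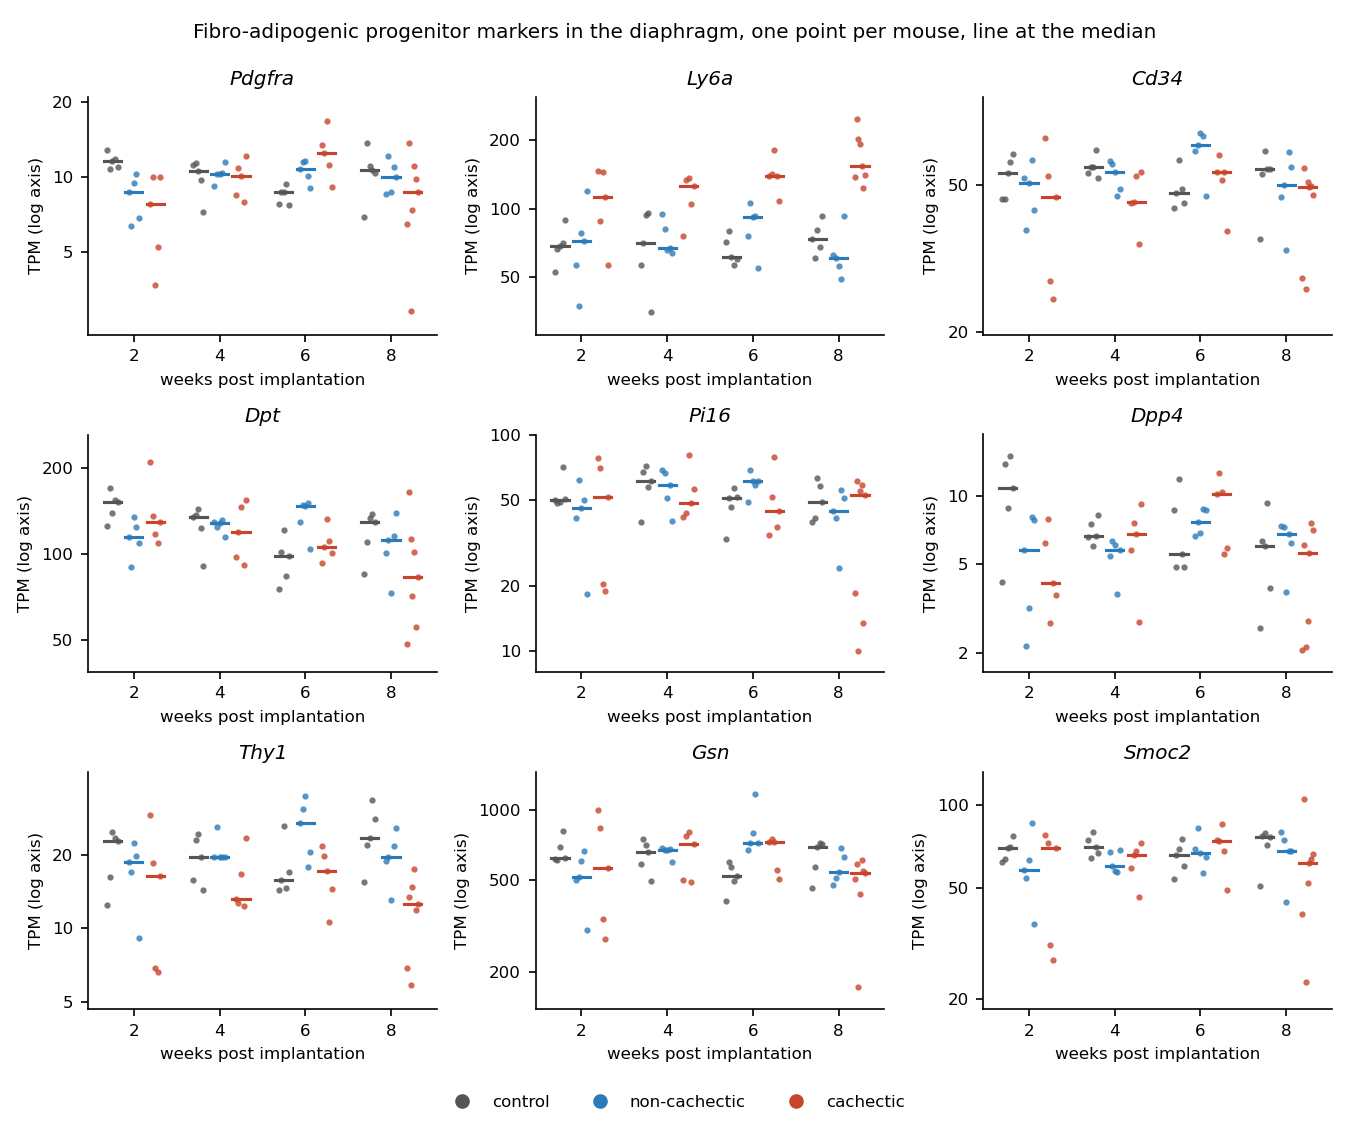
Level of each of the 9 markers in TPM (log axis) against weeks post implantation, with 1 point for each of the 62 mice, colored by group, and a line at the median of each condition. Ly6a in cachectic mice lay above both other groups at 6 and 8 weeks, while most cachectic mice at 8 weeks lay low for Thy1.

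Ly6a was higher in the diaphragm of cachectic mice and Thy1 was lower at 8 weeks. They were the 2 markers called in cachectic versus control mice at that time, when 14.8% of all genes tested were called, 8.12% lower and 6.65% higher. A gene was called where limma gave an adjusted p under 0.05 on the log2(TPM + 1) scale, on which the fold change of low genes is understated. Both were also called against the non-cachectic group at 8 weeks, when 12.9% of genes were. The 2 comparisons share the cachectic mice.

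Ly6a in cachectic mice at 8 weeks ranged from 123 to 245 TPM with a median of 154 (n = 7). The 5 controls had 60.9, 67.8, 73.8, 80.3 and 92.5 TPM, and the 5 non-cachectic mice 49.0, 55.9, 60.6, 63.0 and 92.7 TPM. Every cachectic mouse lay above every mouse of both other groups. Of all genes, 2.52% were higher without overlap in cachectic than in control mice at 8 weeks, and 2.45% than in non-cachectic mice. The log2 fold change was 1.15 ± 0.22 (SE, adjusted p = 0.000171) against controls and 1.39 ± 0.22 (SE, adjusted p = 1.15e-05) against non-cachectic mice. It was called under each of the 14 alternatives and with each of the 12 mice left out, in both comparisons. Without cachectic mouse 3, one of the libraries that stood apart, the log2 fold change was 1.10 against controls and 1.34 against non-cachectic mice.

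Ly6a was also called at 6 weeks. The 5 cachectic mice had 108, 139, 139, 142 and 181 TPM, the controls 56.6, 60.0, 61.8, 71.4 and 79.5 TPM, and the non-cachectic mice 55.1, 75.6, 92.1, 92.9 and 106 TPM. The cachectic mice again lay above both other groups, as did 15.9% of all genes against controls and 13.6% against non-cachectic mice. The log2 fold change was 1.09 ± 0.24 (SE, adjusted p = 0.00250) against controls, where 6.79% of genes were called, and 0.76 ± 0.24 (SE, adjusted p = 0.0483) against non-cachectic mice, where 5.85% were. With median-ratio scaling the first was 0.89 and was not called (adjusted p = 0.103). The second was lost when any of 8 of the 10 mice was left out, the exceptions being cachectic mouse 5 and non-cachectic mouse 2.

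Before 6 weeks, Ly6a was not called. At 4 weeks the cachectic mice had 75.6 to 137 TPM and the controls 35.2 to 95.3 TPM, which overlapped, with a log2 fold change of 0.76 ± 0.24 (SE, adjusted p = 0.396). At 2 weeks the log2 fold change was 0.59 ± 0.24 (SE, adjusted p = 0.0555). In control mice the median stayed between 61.8 and 73.8 TPM over the 4 time points.

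Thy1 in cachectic mice at 8 weeks had 6.88, 13.4, 5.86, 14.8, 17.4, 11.9 and 12.5 TPM. The controls had 15.5, 21.8, 23.5, 33.3 and 28.0 TPM, and the non-cachectic mice 18.9, 19.6, 13.0, 21.6 and 25.6 TPM. Of the cachectic mice, 1 lay above the lowest control and 3 lay above the lowest non-cachectic mouse, so the groups overlapped. The log2 fold change was -1.02 ± 0.26 (SE, adjusted p = 0.00356) against controls and -0.74 ± 0.26 (SE, adjusted p = 0.0465) against non-cachectic mice. The first was called with each of the 12 mice left out, at -1.17 to -0.88, and was lost in a fit with only the groups compared (adjusted p = 0.0545). The second was lost when any of 7 of the 12 mice was left out, and it was -0.60 (adjusted p = 0.101) without cachectic mouse 3. With all 4 libraries with few genes left out it was again -0.60 and was called (adjusted p = 0.0219). At 6 weeks Thy1 was not called, with a log2 fold change of -0.07 ± 0.28 (SE, adjusted p = 0.916) against controls. Against non-cachectic mice at 6 weeks it was not called either, but the levels were less alike. Cachectic mice had 10.6 to 21.7 TPM (median 17.1) and non-cachectic mice 17.8 to 34.9 TPM (median 26.8).

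**Figure D2:**
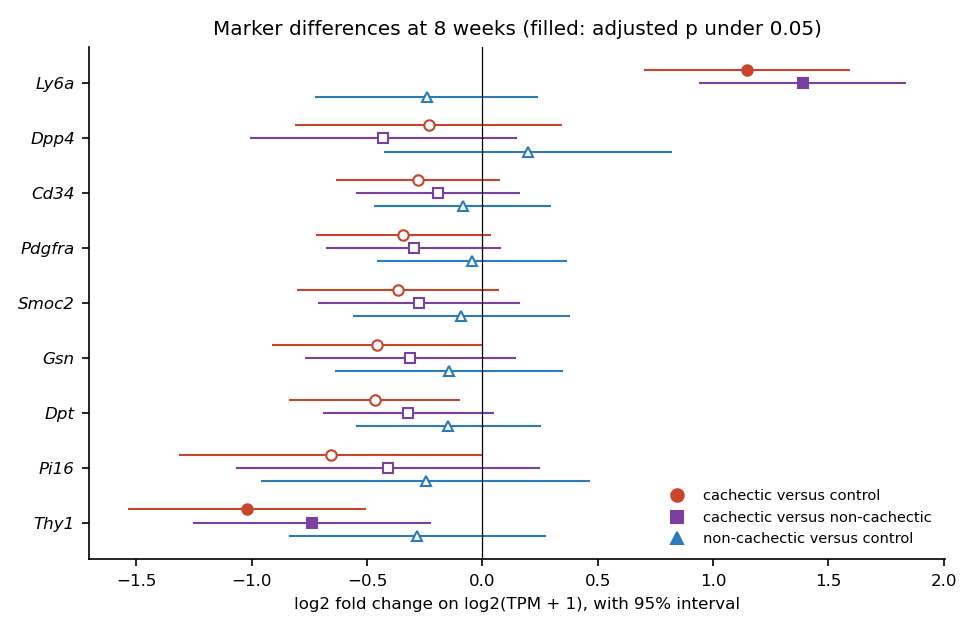
log2 fold change of each marker at 8 weeks on the log2(TPM + 1) scale with its 95% interval, for cachectic versus control, cachectic versus non-cachectic and non-cachectic versus control mice. Filled points mark an adjusted p under 0.05, which Ly6a at 1.15 and 1.39 and Thy1 at -1.02 and -0.74 reached.

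The other 7 markers were not called at 8 weeks, and 7 of 7 had a log2 fold change below 0 in cachectic versus control mice. Pdgfra, which defines the cells, had 2.89 to 13.7 TPM in cachectic mice (median 8.72) and 6.90 to 13.7 TPM in controls (median 10.7), a log2 fold change of -0.34 with a 95% interval of -0.72 to 0.04. Cd34 was at -0.28 (-0.64 to 0.08) and Dpp4 at -0.23 (-0.81 to 0.35). The matrix genes Dpt and Smoc2 were at -0.47 (-0.84 to -0.09, adjusted p = 0.0826) and -0.37 (-0.80 to 0.07), and Gsn was at -0.46 (-0.91 to 0.00). Without cachectic mouse 3, whose library listed few genes, Pdgfra was at -0.14, Gsn at -0.23, Smoc2 at -0.17, Cd34 at -0.17 and Dpp4 at -0.11, all closer to 0, while Dpt was at -0.54. Non-cachectic mice, compared with the same controls, had 8 of the 9 markers below 0 at 8 weeks as well. The intervals rest on 1 spread per gene, shared by all 12 conditions. At 8 weeks the SD on the log2(TPM + 1) scale was larger in cachectic mice than in controls for each of these markers. It was 0.62 against 0.32 for Pdgfra and 0.67 against 0.26 for Smoc2, so the intervals can be too narrow for this comparison. The called markers share this limit, with 0.53 against 0.40 for Thy1 and 0.36 against 0.23 for Ly6a, so their SE can be too small as well. A p that misses the threshold does not show that the levels were alike.

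The median log2 fold change of the 9 markers was -0.37 in cachectic versus control mice at 8 weeks, and the median of all genes tested was -0.09. The scale mattered for these genes. With median-ratio scaling the medians were -0.21 and 0.01, with quantile normalization -0.37 and -0.01, and with the mitochondrially encoded genes left out -0.47 and -0.20. Without the libraries with few genes they were -0.17 and 0.06, with 3015 genes called higher and 1683 lower. With quantile normalization Dpt and Gsn were called lower too, making 4 called markers, and without mitochondrially encoded genes 7 were called, 6 of them lower, all but Pi16 and Dpp4. Over all genes, 1952 were called lower and 1479 higher in the first case and 2989 and 775 in the second, against 1102 and 903 on the deposited scale. Dpt was called lower, at -0.54, without cachectic mouse 3 (adjusted p = 0.0370), at -0.63 without cachectic mouse 2 and at -0.58 without control mouse 1.

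Pi16, the marker of the adventitial subset, was the most uneven of the 9 in cachectic mice at 8 weeks, with an SD of 1.09 on the log2(TPM + 1) scale against 0.36 to 0.67 for the others. It had 18.5, 60.9, 9.98, 54.9, 58.5, 13.5 and 52.6 TPM. In 3 mice it lay below the control range of 39.6 to 63.3 TPM and in 4 mice within it. The log2 fold change was -0.66 ± 0.33 (SE, adjusted p = 0.189), and -0.40 without cachectic mouse 3. The mice that were low for Pi16 were mice 1, 3 and 6. Of these, mice 1 and 6 had the 2 levels of Dpt nearest to the bottom, 48.5 and 55.7 TPM, while mouse 3 had 113 TPM, the second after 165 TPM in mouse 2. Dpp4, the other marker of that subset, was at 2.06, 2.13 and 2.76 TPM in mice 1, 3 and 4 and between 5.55 and 7.59 TPM in the other 4.

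**Figure D3:**
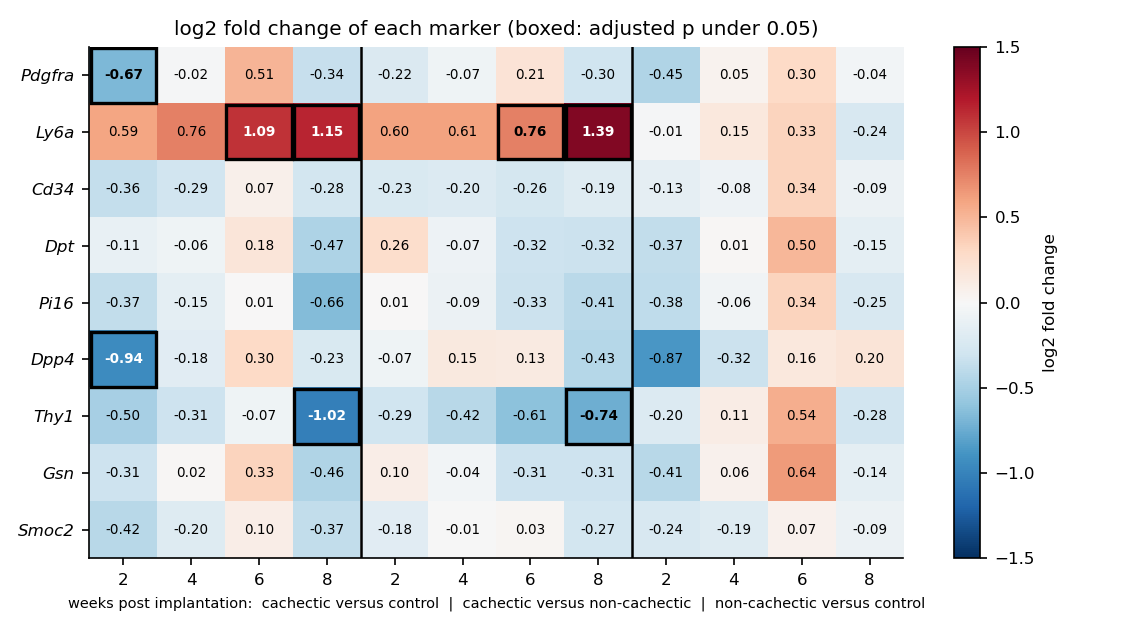
log2 fold change of each marker (vertical axis) at 2, 4, 6 and 8 weeks (horizontal axis) in 3 comparisons, with the value printed in each cell and red for higher, blue for lower. Boxed cells have an adjusted p under 0.05: Ly6a at 6 and 8 weeks in both comparisons of cachectic mice, Thy1 at 8 weeks in both, and Pdgfra and Dpp4 at 2 weeks against controls.

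At 6 weeks the markers other than Ly6a were not called in cachectic versus control mice. Pdgfra had 9.09, 11.2, 12.5, 13.5 and 16.8 TPM in cachectic mice and 7.69, 7.79, 8.68, 8.71 and 9.39 TPM in controls, a log2 fold change of 0.51 ± 0.21 (SE, adjusted p = 0.133). Of these cachectic mice, 4 lay above all controls. Pdgfra was called higher at the same 0.51 when the 4 libraries with few genes, none of them from 6 weeks, were left out (adjusted p = 0.00685), a fit in which 3654 of 13535 genes were called higher and 584 lower. The median of all genes was 0.17 at 6 weeks, close to the 0.18 of the 9 markers, and with median-ratio scaling the medians were 0.01 and -0.01. The calls over all genes were 763 higher and 159 lower on the deposited scale and 468 and 540 with median-ratio scaling. The directions of Cd34, Dpt, Pi16 and Smoc2 at 6 weeks turned with that scaling.

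At 4 weeks no marker was called by limma in cachectic versus control mice, when 0.0221% of genes were, with 1 marker at an unadjusted p under 0.05, Ly6a, and 0 called by Dunn's test. In cachectic versus non-cachectic mice 0 were called, against 0.0295% of genes, with 1 at an unadjusted p under 0.05 (Ly6a) and 0 by Dunn's test. Of the 13578 genes tested, 728 reached that unadjusted p against controls and 697 against non-cachectic mice.

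At 2 weeks Pdgfra and Dpp4 were called lower in cachectic than in control mice, when 29.3% of all genes were called, 27.8% lower. Pdgfra had 3.68, 5.22, 7.76, 9.997 and 10.04 TPM in cachectic mice and 10.8 to 12.8 TPM in controls, without overlap, as 0.508% of genes were lower without overlap. Its log2 fold change was -0.67 ± 0.21 (SE, adjusted p = 0.0187), and that of Dpp4 was -0.94 ± 0.31 (SE, adjusted p = 0.0257). Cachectic mice 3 and 4, whose libraries listed few genes, were the lowest for Pdgfra, Cd34, Dpt, Pi16, Thy1, Gsn and Smoc2. Without the libraries with few genes 0 markers and 0 of all genes were called, with Pdgfra at -0.30 and Dpp4 at -0.69, and 7 of the 9 markers were then above 0. Without the controls with high liver genes only control mice 1 and 3 remained, and 0 markers and 0 of all genes were called. Pdgfra was then at -0.74 ± 0.28 (SE) and Dpp4 at -0.34 ± 0.40 (SE). With so few controls a lost call does not show a lost difference. Leaving out 1 mouse gave 0 called markers without cachectic mouse 3, cachectic mouse 4 or control mouse 2, and 1 (Pdgfra) without control mouse 4 or 5. It gave 5 (Pdgfra, Cd34, Dpp4, Thy1 and Smoc2) without cachectic mouse 1. The share of all genes called in these fits is not given here. These counts therefore show only that the calls hung on single mice, and are not a result about the markers. The scale also mattered: with median-ratio scaling the called marker was Ly6a, higher, and the calls over all genes were 1175 higher and 1203 lower, against 192 and 3781.

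The non-cachectic melanoma gave no called marker at any time by limma, where 4.43% of genes were called at 2 weeks and 0% at 4, 6 and 8 weeks. The log2 fold change against controls was below 0 for 9 of 9 markers at 2 weeks and 8 of 9 at 8 weeks, and above 0 for 9 of 9 at 6 weeks. The medians of the 9 were -0.37, -0.14 and 0.34, and those of all genes -0.18, -0.02 and 0.03. The cachectic mice were set against the same controls. At an unadjusted p under 0.05 there were 2 markers at 2 weeks (Pdgfra and Dpp4), 0 at 4 weeks, 2 at 6 weeks (Dpt and Gsn) and 0 at 8 weeks, and Dunn's test called 0 at each time. Of the 13578 genes tested, 1688, 68, 100 and 55 reached that unadjusted p at 2, 4, 6 and 8 weeks. Pdgfra was lower without overlap than in controls at 2 weeks, as were 0.95% of genes, at 6.36 to 10.3 TPM against 10.8 to 12.8 TPM. Gsn was higher without overlap at 6 weeks, as were 0.368% of genes, at 675 to 1168 TPM against 405 to 598 TPM. Against the non-cachectic group, cachectic mice at 2 weeks had 0 called markers and 0% of genes called, with 1 marker (Ly6a) at an unadjusted p under 0.05 and 0 called by Dunn's test. In that comparison 1709 of the 13578 genes tested reached an unadjusted p under 0.05. Without non-cachectic mouse 5, Ly6a was called higher there.

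Differences over time were tested next. Whether the difference between cachectic and control mice changed between 4 and 8, 6 and 8, or 4 and 6 weeks was tested as an interaction in limma, and 0 markers and 0% of genes were called in each (Dunn's test gives no interaction). At an unadjusted p under 0.05 there were 0, 4 and 0 markers, against 1022, 580 and 506 of the 13578 genes tested. The 4, for 8 minus 6 weeks, were Pdgfra at -0.85 ± 0.28 (SE), Thy1 at -0.95 ± 0.38, Gsn at -0.79 ± 0.34 and Dpt at -0.65 ± 0.27. The Ly6a difference changed by 0.06 ± 0.33 (SE) from 6 to 8 weeks. Controls at 8 versus 4 weeks gave 0 called markers and 0% of genes by limma, 0 at an unadjusted p under 0.05 and 0 by Dunn's test. Cachectic mice at 8 versus 4 weeks gave 0 called markers against 2.07% of genes, with 4 at an unadjusted p under 0.05 (Ly6a at 0.55, Dpt at -0.49, Pi16 at -0.74 and Gsn at -0.50) and 0 by Dunn's test. In that comparison 1914 of the 13578 genes tested reached an unadjusted p under 0.05. Without cachectic mouse 2 at 8 weeks, Dpt was called lower there.

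Each pair of markers without Ly6a was positively correlated from mouse to mouse, the lowest r being 0.24 between Pi16 and Dpp4. After the mean of each condition was subtracted, Pearson's r of log2(TPM + 1) over the 62 mice had a median of 0.52 over the 36 pairs. The highest was 0.85, between Pdgfra and Smoc2, and Cd34 with Smoc2 reached 0.82 and Cd34 with Thy1 0.80. The lowest was -0.0038, between Pdgfra and Ly6a, and Ly6a with Smoc2, Pi16 and Gsn gave -0.0029, 0.0047 and 0.034. With Dpt, Ly6a gave 0.53. Without the libraries that stood apart, over 55 mice, the median was 0.50, and the r of Ly6a with these genes was 0.33 (Pdgfra), 0.39 (Smoc2), 0.37 (Pi16) and 0.54 (Gsn). Pdgfra with Smoc2 was then 0.74, Cd34 with Smoc2 0.72, Cd34 with Thy1 0.69 and Pi16 with Dpp4 0.16. Single pairs moved both ways: Gsn with Smoc2 fell from 0.76 to 0.38, and Dpt with Smoc2 rose from 0.44 to 0.68. The points share each mouse's library and its scaling.

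Among all genes tested, the ones most like Pdgfra by the same r were Dab2 (0.86), an endocytic adaptor, Adamts2 (0.86), which trims the ends of fibrillar procollagens, and Mmp2 (0.85), a gelatinase. Those most like Smoc2 were Adamts2 (0.91), Nid1 (0.89), which links laminin and collagen in basement membranes, and Cd200 (0.89), a surface glycoprotein. Those most like Pi16 were Alpl (0.84), an alkaline phosphatase, Pcsk6 (0.84), a proprotein convertase, and 3110062M04Rik (0.84). By ranks (Spearman's rho) the values for these genes ran from 0.75 for Alpl with Pi16 to 0.84 for Adamts2 with Pdgfra. They include the libraries that stood apart and were not computed without them, so the part of library quality in them was not tested.

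Collagen genes of fibroblasts were lower in cachectic mice at 8 weeks. In cachectic versus control mice at 8 weeks, 8 of 12 fibroblast matrix genes were called lower and 2 higher, with a median log2 fold change of -1.48. As many were lower with median-ratio scaling, with quantile normalization, without the mitochondrially encoded genes and without the libraries with few genes, and 1 or 2 were higher. Dunn's test called 5 of the 12, Col1a1, Col5a1 and the collagen VI chains Col6a1, Col6a2 and Col6a3. Col6a3, a chain of the microfibrillar collagen around myofibers, fell by 1.93 on the log2 scale (adjusted p = 2.52e-05), from 12.7 to 23.4 TPM in controls to 1.62 to 8.70 TPM in cachectic mice, without overlap, as 3.82% of genes. Col6a2 fell by 2.14 (adjusted p = 7.39e-05), Col6a1 fell by 1.93 (adjusted p = 8.28e-05) and Col3a1, a fibrillar collagen, fell by 1.89 (adjusted p = 0.000428). The 2 that rose were Mgp, an inhibitor of calcification, at 1.06, and Dcn, a small proteoglycan that binds collagen, at 0.49. In cachectic versus non-cachectic mice 8 were lower and 1 higher. At 6 weeks 0 of 12 were lower and 2 higher against controls, and the count depended on the scale: 2 were lower and 0 higher with median-ratio scaling, 2 lower and 2 higher with quantile normalization or without the libraries with few genes, and 0 lower and 1 higher without mitochondrially encoded genes. Against the non-cachectic group at 6 weeks 4 were lower and 2 higher, with a median of -0.94. Whether matrix genes changed more than the markers was not tested.

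**Figure D4:**
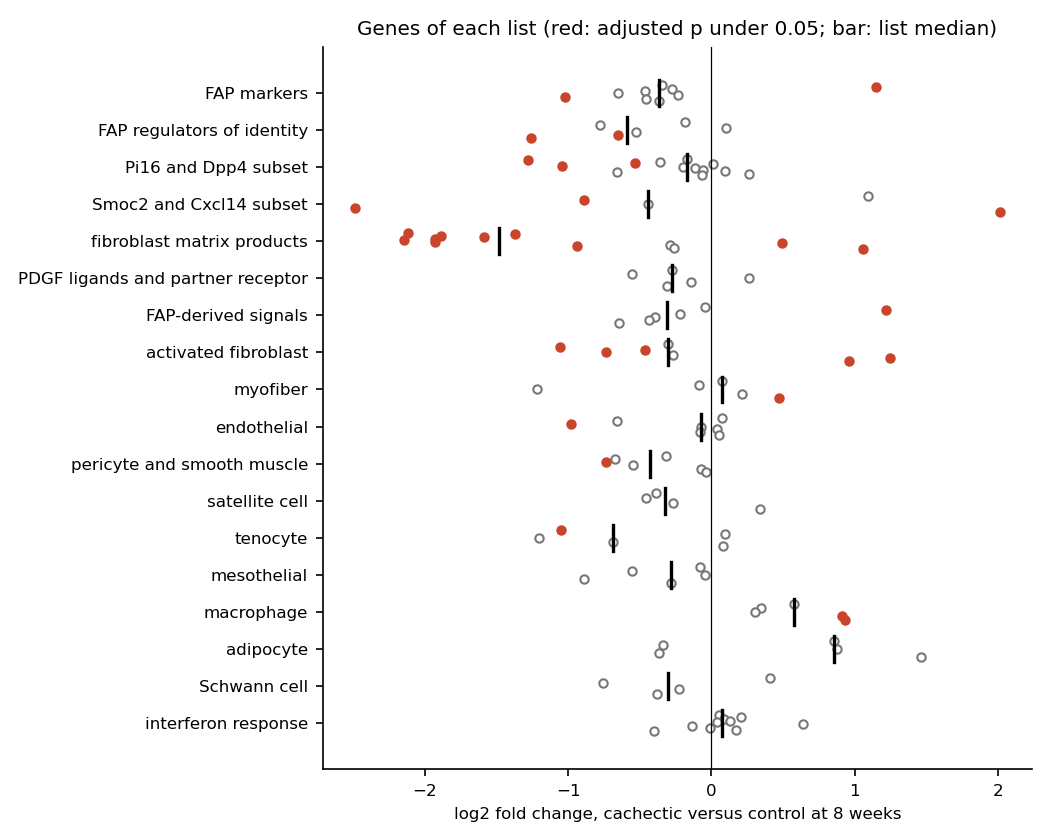
log2 fold change in cachectic versus control mice at 8 weeks of each tested gene (points) of the FAP markers and of 17 other gene lists, each on its own line (liver and T cell lists not drawn), with red for an adjusted p under 0.05 and a bar at the median. The median was -0.37 for the FAP markers and -1.48 for the fibroblast matrix products, where 8 of 12 genes were lower.

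Transcription factors of mesenchymal identity were tested for 6 of 8 genes, of which 2 were lower and 0 higher. Meox1, a homeobox factor, fell by 1.26 (adjusted p = 0.000617) and Prrx1, a homeobox factor of limb mesenchyme, fell by 0.65 (adjusted p = 0.0183), with a list median of -0.59. With either other scaling 4 of them were lower, and without the libraries with few genes 2 were, at a list median of -0.39. Dunn's test called Meox1 and Prrx1. Of 13 further genes of the subset marked by Pi16 and Dpp4, 3 were lower and 0 higher: Fbn1 (fibrillin-1) fell by 1.28, Cd248 (endosialin) fell by 1.04 and Sema3c, a secreted semaphorin, fell by 0.54, and of these Dunn's test called Fbn1. Of 5 genes of the subset marked by Smoc2 and Cxcl14, Col15a1, a basement membrane zone collagen, fell by 2.49, Lum, a small proteoglycan, fell by 0.89, and Hsd11b1, which regenerates active glucocorticoid, rose by 2.01 (adjusted p = 0.000304). Dunn's test called Col15a1 and Hsd11b1. The median of these 5 genes was -0.45, and 0.0083 without the libraries with few genes, when 2 were lower and 2 higher.

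Of the PDGF ligands and Pdgfrb, 0 of 5 were called at 8 weeks by limma, 0 at an unadjusted p under 0.05 and 0 by Dunn's test, and Pdgfc was called higher at 6 weeks (0.54). At 8 weeks against controls, 3666 of the 13578 genes tested reached an unadjusted p under 0.05. With median-ratio scaling or without the libraries with few genes 1 of the 5 was higher at 8 weeks, with quantile normalization 1 was higher and 1 lower, and without mitochondrially encoded genes 1 was lower. Of the signals that FAPs release, 1 of 6 tested was called, Il33, an alarmin that acts on regulatory T cells and innate lymphoid cells, higher at 1.22 (adjusted p = 0.00184). With either other scaling 2 of the 6 were lower and 1 higher, and without mitochondrially encoded genes 3 of 7 were lower and 1 higher. Of 7 genes of activated fibroblasts, Tnc, Postn and Fap were lower at -0.74, -1.06 and -0.46, and Lox, the enzyme that crosslinks collagen, and Timp1, an inhibitor of matrix proteases, were higher at 1.247 and 0.96. With median-ratio scaling 1 of the 7 was lower and 2 were higher, and Dunn's test called Tnc alone of the 7 and 0 of the 6 signals.

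Several other cell types express some of these markers. Of 7 endothelial genes 1 was lower at 8 weeks, Kdr (a VEGF receptor) at -0.98, and 0 were higher. Their summed level was 67.2 to 265 TPM in cachectic mice, 212 to 271 in controls and 206 to 266 in non-cachectic mice. The median of this sum was 226 TPM in cachectic mice, which include mouse 3 with its few-gene library, and 231 TPM in controls. The T cell genes Cd3e, Cd3g, Cd4, Cd8a and Trac were too low to test, with a sum of 0.250 to 2.20 TPM in cachectic mice and 0.638 to 1.21 TPM in controls. Ly6a is also induced by interferons, and of 10 interferon response genes 0 were called by limma in cachectic mice at 8 weeks, at a median log2 fold change of 0.07, with 2 at an unadjusted p under 0.05 and 1 called by Dunn's test. With either other scaling 1 of the 10 was higher, without the libraries with few genes 1 was higher and 1 lower, and without mitochondrially encoded genes 1 was lower. Of 5 macrophage genes, Mrc1 (0.91) and C1qa (0.93) were higher by limma and 0 lower, and Dunn's test called 0, with a sum of 89.2 to 246 TPM in cachectic mice, 72.2 to 113 in controls and 63.6 to 168 in non-cachectic mice. Their part in the Ly6a and Thy1 results was not tested.

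For the remaining lists, Cspg4 (-0.74) was the 1 gene called of 6 for pericytes and smooth muscle, Tnmd (-1.05) the 1 of 5 tested for tenocytes, and Mylpf (0.47, higher) the 1 of 5 for myofibers. The lists of satellite cells, mesothelium, adipocytes, Schwann cells and liver had 0 called genes by limma at 8 weeks against controls and 0 by Dunn's test, while an unadjusted p under 0.05 was reached by 2, 1, 1, 2 and 0 of their genes. Satellite cell genes depended on the scale, with 2 of 4 lower and 1 higher under median-ratio scaling, 1 higher with quantile normalization or without the libraries with few genes, and 2 of 5 lower without mitochondrially encoded genes. Of the 4 Schwann cell genes 1 was higher in each of the first 3 settings and 1 lower in the last, where 1 mesothelial gene was lower too. The most abundant gene of each list that marks another cell type was followed by mouse. Cdh5, an endothelial cadherin, had 6.75 to 71.3 TPM in cachectic mice and 65.4 to 81.4 TPM in controls. Acta1, skeletal actin, had 8945 to 47694 TPM against 25258 to 33175 TPM. Myofiber transcripts were thus abundant in each library, as the tissue label says. Rgs5 of pericytes had 110 to 223 TPM against 217 to 260.1 TPM, Cdh15 of satellite cells 0.863 to 17.4 TPM against 10.3 to 14.9 TPM, and Thbs4 of tenocytes 20.6 to 143 TPM against 28.2 to 78.3 TPM. Upk3b of mesothelium had 7.10 to 51.3 TPM against 17.0 to 59.0 TPM. Each of these ranges reached lower in cachectic mice, and those of Acta1, Cdh15 and Thbs4 also reached higher. The cachectic ranges cover 7 mice, among them mouse 3, whose library listed few genes, and the control ranges 5 mice. Ranges without mouse 3 were not computed, so the low ends are not read as a loss of these cell types. The medians in cachectic and control mice were 36997.8 and 28684.5 TPM for Acta1, 14.6 and 13.4 for Cdh15, and 63.3 and 66.8 for Thbs4. They were 66.2 and 74.8 TPM for Cdh5, 204 and 234 for Rgs5, and 31.1 and 47.4 for Upk3b. C1qa of macrophages had 62.1 to 162 TPM against 46.1 to 70.8 TPM, and Cfd of adipocytes 214 to 2033 TPM against 84.0 to 474 TPM. Alb, made in the liver, spanned 0 to 1022 TPM in cachectic mice and 0 to 186 TPM in controls, and Cd3g of T cells 0 to 1.46 TPM against 0.190 to 0.431 TPM. Their part in the marker results was not tested.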

How the data were processed

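Diaphragm RNA from 62 mice in 12 conditions was sequenced by the study. The authors mapped the reads with CLC Genomics Workbench to GRCm38/mm10 and deposited TPM values for 47643 genes, which sum to the same total in each library. Annotation, use of strand and treatment of multiply mapping reads are not given in the sources used here. TPM carry no counts, so depth is unknown and no counting interval is given. Labels and methods name different strains and library kits.

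The deposited TPM were taken as log2(TPM + 1), keeping the 13578 genes that reached 1 TPM in 5 or more mice. One limma model (limma 3.58.1, R 4.3.3; a mean per condition, empirical Bayes with a trend, moderated two-sided tests) covered all 62 libraries, and p-values were Benjamini-Hochberg adjusted over all genes within each of 17 contrasts. Genes with an adjusted p under 0.05 were called. The procedure was tested on simulated data. Dunn's test on ranks, which the study used with the Kruskal-Wallis test, was an alternative. So were other scalings, filters, weights, a replicate block and leaving out libraries or single mice. The Dunn p-values were adjusted here over all genes within each contrast, with no fold change cutoff. The study's methods give cutoffs on p and on fold change and name no such adjustment. Calls by Dunn's test here are therefore not the study's calls. The labels give each library as a separate mouse, and 0 libraries were identical.

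The markers and gene lists were chosen with earlier results of these data known. Of each list, the text names the genes called in cachectic versus control mice at 8 weeks, at most 4 by lowest adjusted p, the most abundant gene of each list marking another cell type, and the 3 genes most correlated with Pdgfra, Pi16 and Smoc2. Mgp, Dcn, Col1a1, Col5a1, Postn and Pdgfc were named after their values were seen. Some genes that the rule or a count would name are not reported here. Promoters were taken from RefSeq (GRCm38.p6) and positions from GENCODE. Leaving out both kinds of libraries that stood apart was added after the data were seen.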

Additional observations from a re-analysis of the deposited data

Results flagged for a closer look

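In 9 of the 108 sets of values (1 marker in 1 condition, 8.33%) a single mouse lay far from the others by Dixon's test at its 95% critical value, which chance gives in about 1 set of 20. At 8 weeks, Gsn was 173 TPM in cachectic mouse 3, the lowest of 7, whose library also listed few genes. Also at 8 weeks, control mouse 1 was the lowest of 5 for Cd34 (35.6 TPM) and Smoc2 (50.8 TPM), and non-cachectic mouse 3 was the lowest of 5 for Dpp4 (3.76 TPM) and Smoc2 (44.9 TPM). At 6 weeks, Cd34 was 46.6 TPM in non-cachectic mouse 5, the lowest of 5. At 4 weeks, Thy1 was 25.8 TPM in non-cachectic mouse 2, the highest of 5, and Gsn was 596 TPM in non-cachectic mouse 5, the lowest of 5. At 2 weeks, Pi16 was 70.8 TPM in control mouse 4, the highest of 5, whose library had high liver genes.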

How the results depend on the processing

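Counts below are of called markers, and where no reason is given the cause was not tested. The share of all genes called in each setting is not given beside these counts. They show how the calls moved and are not results about the markers. In cachectic versus control mice the 2 at 2 weeks became 1 with median-ratio scaling, quantile normalization, array quality weights or the liver list as a covariate, and 0 by Dunn's test, with only the groups compared, with a log2 fold change over 1, or without the libraries with few genes, with high liver genes or both. The 0 at 4 weeks became 1 with array weights. The 1 at 6 weeks became 0 with median-ratio scaling or Dunn's test, 3 with array weights, and 2 with only the groups compared or without the libraries with few genes or both kinds. The 2 at 8 weeks became 4 with quantile normalization, 7 without mitochondrially encoded genes and 1 with only the groups compared. In cachectic versus non-cachectic mice the 0 at 4 weeks became 1 with array weights. The 1 at 6 weeks became 0 with a pseudocount of 0.1, no filter, the replicate block, Dunn's test, a log2 fold change over 1, or without the high liver libraries or with the liver covariate, and 2 with either scaling, array weights, or without the few-gene libraries or both kinds. The 2 at 8 weeks became 1 (Ly6a) with no filter, the replicate block, Dunn's test, only the groups compared, a log2 fold change over 1 or without the high liver libraries. In non-cachectic versus control mice array weights gave 1 at 2 weeks and 3 at 6 weeks, in place of 0. For each of the differences at 8 minus 4, 8 minus 6 and 6 minus 4 weeks they gave 1 in place of 0, and for cachectic mice at 8 versus 4 weeks 1, as did leaving out the few-gene libraries or both kinds. Leaving out 1 mouse gave 0 to 5 (cachectic versus control, 2 weeks), 2 to 3 (8 weeks), 0 to 1 (cachectic versus non-cachectic, 2 and 6 weeks), 1 to 2 (8 weeks), 0 to 1 (non-cachectic versus control, 2 weeks) and 0 to 1 (cachectic mice, 8 versus 4 weeks). Replicate numbers are shared between groups, but r of the deviations was over 0.1 in 18 of 60 same-numbered pairs, 11 libraries were most like their own number, and 0 comparisons had every pair above it, so the block only tests a number. With the block, Thy1 against the non-cachectic group at 8 weeks was -0.79 (adjusted p = 0.0601). In the comparisons tallied below, directions that turned were all of markers that were not called. In cachectic versus control mice at 6 weeks, with median-ratio scaling, quantile normalization and without mitochondrially encoded genes, Cd34 was -0.12, -0.11 and -0.093, Pi16 -0.18, -0.18 and -0.16, and Smoc2 -0.090, -0.084 and -0.067. Dpt was -0.0087 with median-ratio scaling and Pi16 -2.58e-05 with array weights. Leaving out 1 mouse there turned Pi16 (-0.17 to 0.12) and Thy1 (-0.17 to 0.075). Against the non-cachectic group at 8 weeks Pi16 was 0.026 with array weights. In non-cachectic versus control mice at 8 weeks leaving out 1 mouse turned Pdgfra (-0.17 to 0.049), Cd34 (-0.21 to 0.045), Dpp4 (-0.000445 to 0.38) and Smoc2 (-0.20 to 0.045). For single markers, the tally covered the group comparisons at 8 weeks and cachectic versus control mice at 6 weeks, not 2 or 4 weeks. In it, 467 alternatives kept direction and side of the threshold, 16 came to pass it, 9 no longer did and 12 reversed. Leaving out 1 mouse gave 375, 3, 7 and 11. Outside this tally, in cachectic versus control mice at 2 weeks, Cd34, Dpt, Pi16, Thy1, Gsn and Smoc2 turned from below to above 0 without the few-gene libraries. TPM give no depth, so low levels such as those of Dpp4 have no counting error here.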
